A study of Mus musculus with 32 samples.

Results

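In mouse embryonic fibroblast cultures reprogrammed for 12 days in serum medium, 68 of 375 single cells held at least 1 unique molecular identifier (UMI, a tag that counts 1 captured RNA molecule) of Nanog or Epcam. These 68 cells, 33 from replicate A and 35 from replicate B, were chosen by their UMIs of those genes from barcodes with 1000 or more UMIs that were not on the deposited list of feeder cells. The other 307 cells of the same libraries had 0 UMIs of both genes. Across the whole series 7599 of 8334 barcodes passed the same filters. The levels of Nanog and Epcam themselves are therefore given as description with no test.

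The study followed mouse embryonic fibroblasts (MEFs) through reprogramming by droplet single-cell RNA sequencing, in 32 libraries of 16 groups with 2 replicates each. The protocol shared by all samples gives doxycycline at 2 ug/mL, plating on irradiated MEF feeders, and embryonic stem cell medium with serum and leukemia inhibitory factor. The day 12 serum libraries, called FBS day 12 here, have no further treatment on their labels and received none of the small molecules. They were set beside untreated mouse embryonic stem cells (ESCs) in the same medium, and beside MEF cultures at day 6 of the A2S treatment. A2S combines ascorbic acid, 2i (the GSK3 inhibitor CHIR-99021 and the MEK inhibitor PD-0325901) and the DOT1L inhibitor SGC0946. The labels do not name the factors that doxycycline switches on, and do not say whether replicates A and B were separate cultures, so p-values measure only the spread between these libraries.

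Reprogramming of fibroblasts passes through loss of mesenchymal genes and gain of epithelial genes before the pluripotency network is switched on. Nanog encodes a homeodomain transcription factor of that network, and Epcam encodes a cell adhesion protein of epithelial and pluripotent cells. Tdh encodes threonine dehydrogenase, which mouse ESCs use to break threonine down to glycine and acetyl-CoA. In the GENCODE M21 annotation of mm10, the protein-coding gene Nanog lies on the plus strand of chromosome 6 (122707489 to 122714633). Epcam lies on the plus strand of chromosome 17 (87635979 to 87651129), and Tdh on the minus strand of chromosome 14 (63492347 to 63509092).

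The Nanog promoter is shown because Nanog chose the cells and because Sox2, described below, was at higher levels in them than in the remaining cells. The run covers 250 bases before to 50 bases after the RefSeq start (GRCm38.p6, plus strand, chr6:122707239-122707538), with capitals on an octamer motif (TTTGCAT) and a Sox motif (ACAATG), 1 base apart. The first capital lies 75 bases before the start.

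Nanog: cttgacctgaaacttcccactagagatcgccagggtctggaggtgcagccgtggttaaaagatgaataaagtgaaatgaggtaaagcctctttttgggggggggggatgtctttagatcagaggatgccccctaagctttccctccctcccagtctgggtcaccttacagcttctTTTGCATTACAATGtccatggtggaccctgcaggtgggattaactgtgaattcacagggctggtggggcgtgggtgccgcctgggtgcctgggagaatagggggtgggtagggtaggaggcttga

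Searched on both strands, this pattern of 14 bases was in 2 of 32851 RefSeq promoters of the same length (0.00609%), both of them Nanog's. The octamer alone, TTTGCAT, was in 1520 (4.63%). Apart from the base between the motifs, only this exact spelling was searched, so promoters with other spellings were not counted. A match describes letters only and shows no binding.

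Depth and doublets were examined first. Members held a median of 10542 UMIs per cell in replicate A and 11982 in replicate B, against 8698 and 9147 in the cells with 0 UMIs of both genes. The lowest member held 2647 UMIs in replicate A and 1407 in replicate B, and the highest held 21612 and 21314. Scrublet, a doublet caller, marked 3 of the 68 members and 16 of the 307 remaining cells, and these were kept. Replicates A and B shared 0 barcodes, and no member's barcode was also in another library. Fewer cells with a transcript and less transcript per cell cannot be told apart in sums over cells. Counts of cells are given beside the sums for a few genes, such as Nanog, Tdh and Trh. Levels of most other genes are sums alone.

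Members made up nearly the same share of both day 12 libraries. The share was 17.8% in replicate A (33 of 185 cells; exact 95% interval 12.6 to 24.1) and 18.4% in replicate B (35 of 190 cells; 13.2 to 24.7). Intervals here are Clopper-Pearson and cover counting error only. By the same rule, day 9 held 6.75% and 4.66%, day 6 held 1.39% and 1.52%, and day 3 held 1.74% and 0.418%. Both day 12 libraries were above every earlier serum library. ESCs stood at 97.1% and 97.6%, and A2S day 6 at 81.7% and 72.8%, both far above day 12.

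Unreprogrammed MEFs, which should lack both genes, gave 1.01% (3 of 298 cells) and 1.86% (8 of 431 cells) at median depths of 22796 and 19102 UMIs. Days 3 and 6 lay at or below the range of MEFs, at lower median depths of 9148 to 14366 UMIs. Of the day 12 barcodes on the feeder list, 1 of 15 in replicate A and 0 of 13 in replicate B held a UMI of either gene, which allows shares of up to 31.9% and 24.7%. How much free RNA adds to the members with 1 UMI was not tested. All 11 positive MEFs held exactly 1 UMI. Cells with 2 or more UMIs numbered 0 in MEFs, day 3 and day 6, 11 and 12 at day 9, and 22 in each replicate at day 12 (11.9% and 11.6%). When every cell was thinned to 1000 UMIs before the rule was applied, the shares were 6.49% and 8.95% at day 12, 2.57% and 0.822% at day 9, 0.279% and 0.508% at day 6, 0.870% and 0% at day 3, and 0% in both MEF libraries (exact intervals up to 1.23% and 0.852%). The thinned values of days 3 and 6 rest on 0 to 2 cells a library, and their intervals overlap those of MEFs and of day 9 replicate B. The thinned intervals of day 12 replicate A (3.40 to 11.1%) and day 9 replicate A (1.12 to 5.01%) also overlap. Median depths were 5342 and 5892 UMIs at day 9, against 9018 and 9458 at day 12. With 2 libraries against 2, an exact permutation test cannot give a two-sided p below 0.333, so the shares carry no test.

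**Figure D1:**
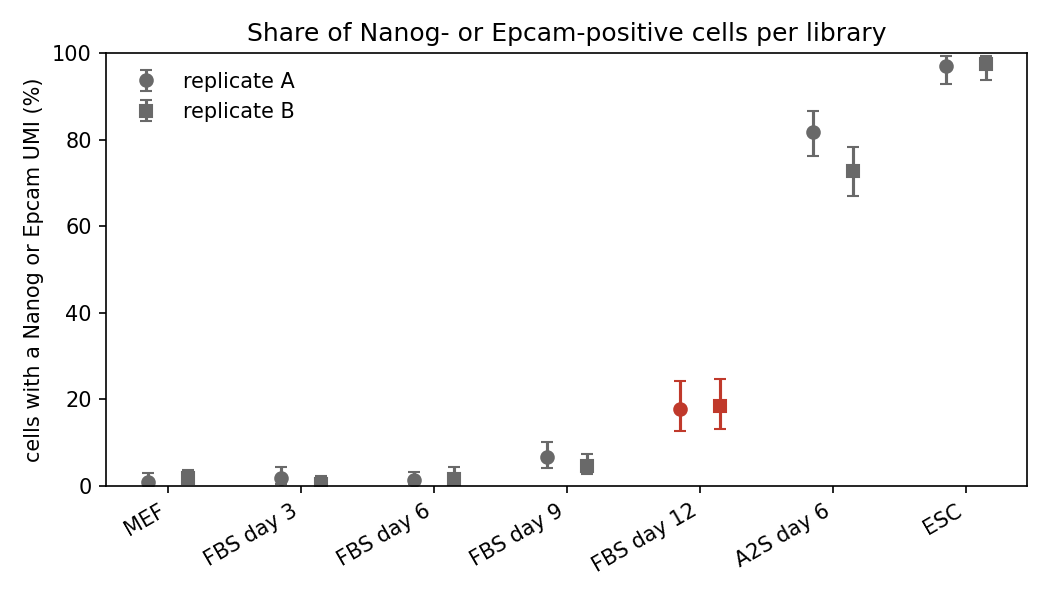
Share of kept cells with at least 1 UMI of Nanog or Epcam (y axis, percent) in each library (x axis, by group), replicate A as circles and replicate B as squares, with exact 95% binomial intervals as bars. Serum day 12 stands at 17.8% and 18.4%, above day 9 and below A2S day 6 and ESCs.

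The rule admitted a wide range of cells. Of the 68 members, 16 held UMIs of Nanog only, 28 of Epcam only and 24 of both. Exactly 1 UMI of the pair was present in 24 members (11 in replicate A and 13 in replicate B), 2 to 5 UMIs in 20, and 6 or more in 24 (12 in each). The highest member held 27 UMIs in replicate A and 48 in replicate B. Both genes were seen together in 42.4% and 28.6% of members, in 19.05% and 0% of positive day 9 cells, in 55.3% and 64.9% of positive A2S day 6 cells, and in 79.1% and 83.8% of positive ESCs. Depth differed too. Median UMIs of positive cells were 8702 and 9250 at day 9 and 10542 and 11982 at day 12. They were 12979.5 and 12407 at A2S day 6, and 16681.5 and 14952.5 in ESCs. How much depth adds to these shares was not tested.

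UMIs of Nanog and Epcam went together within the day 12 libraries. Nanog was present in 14 of 25 cells with an Epcam UMI in replicate A and in 10 of 27 in replicate B. Among cells without an Epcam UMI it was present in 8 of 160 and 8 of 163. Summed over cells, Nanog stood at 261 and 457 CPM (UMIs per 1000000 of the class) with Epcam, and at 11.05 and 17.7 without it.

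Members with a single gate UMI, those just inside the rule, differed from the others in both marker sets. Per 10000 UMIs of a cell, 10 pluripotency markers (Tdh, Pou5f1, Sox2, Sall4, Esrrb, Zfp42, Dppa5a, Tdgf1, Utf1 and L1td1) summed to a median of 2.03 UMIs in members with 1 UMI, 10.9 with 2 to 5, and 30.4 with 6 or more. The medians were 48.1 in members with both genes, 0 in cells just outside the rule, with 0 UMIs, and 52.98 in ESCs. A set of 10 fibroblast markers, among them Col1a1, Thy1 and Twist1, went the other way, at medians of 12.3 UMIs in members with 1 UMI, 0.584 in members with both genes, 36.8 in cells with 0 UMIs and 0 in ESCs. The medians of members with 1 UMI therefore lay between those of the cells with 0 UMIs and of the members with both genes. They also lay within the quartiles of the cells with 0 UMIs, which were 0 to 2.65 for pluripotency markers and 9.32 to 90.2 for fibroblast markers. Of those 307 cells, 170 held no UMI of the pluripotency markers.

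Counted as cells with UMIs of at least 2 markers of a set, 31 members held pluripotency markers only, 17 fibroblast markers only, 11 both sets and 9 neither. Of the 17 members with fibroblast markers only, 14 had exactly 1 gate UMI and none had 6 or more. The median depth of members with 1 UMI, 10075 and 12035 UMIs in replicates A and B, was close to that of all members. Sums over all 68 members thus mix cells that differ in their levels. Values for the 24 members with both genes are given beside them below, a subset chosen after the data were seen.

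**Figure D2:**
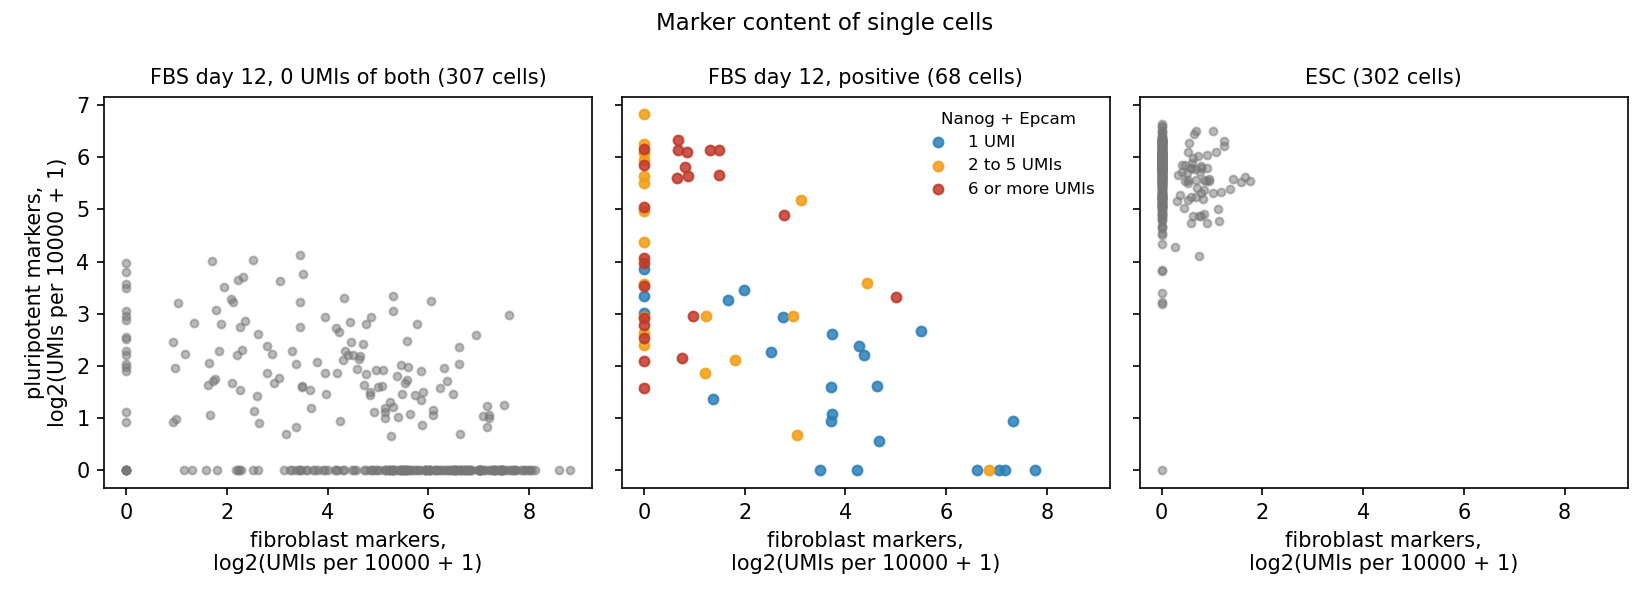
Each point is 1 cell, with summed fibroblast markers on the x axis and summed pluripotency markers on the y axis, both as log2(UMIs per 10000 + 1), without Nanog and Epcam. Panels show the 307 serum day 12 cells with 0 UMIs, the 68 members coloured by their UMIs of the 2 genes, and the 302 ESCs; the members spread from the fibroblast side (mostly those with 1 UMI) to the high pluripotency values of ESCs.

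UMIs were summed over the cells of a class in each library and tested with edgeR's quasi-likelihood test, with Benjamini-Hochberg adjustment over 11656 genes and calls at an adjusted p under 0.05. Levels below are CPM of a class, TMM-scaled unless called unscaled. The class sums held 339451 and 391692 UMIs for members and 1388039 and 1542243 for the cells with 0 UMIs. Levels of different genes are set side by side as captured 3′ ends, and each fold compares 1 gene between classes.

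Against the cells with 0 UMIs from the same libraries, members had a raised pluripotency network, raised epithelial, DNA replication and mitotic genes, and lowered matrix genes. Of all genes tested, 27.7% were called (1536 higher, 13.2%, and 1697 lower, 14.6%). Since both classes come from the same 2 libraries and were parted by UMIs of 2 genes in those same cells, the adjusted p-values say how repeatably the sums differed between the libraries. Without replicate B 2037 genes were called, and without replicate A 2472.

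Nanog stood at 253 and 410 CPM in members of replicates A and B, and Epcam at 324 and 189, with 0 outside by construction. Of 39 other pluripotency genes, all tested, 36 were higher in members and 1 was lower, with a median log2 fold change of 4.68 against −0.07 over all genes. Klf5 (22.7 and 32.3 against 13.3 and 16.5 CPM) and Pecam1 (0 and 2.49 against 0 and 0) were not called.

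Sox2, a partner factor of the network, stood at 182 and 331 CPM in members and 1.56 and 2.06 in the remaining cells. The libraries of the classes were far apart, and the log2 fold change was 7.09 ± 0.43 (SE; edgeR adjusted p = 3.6e-10). Sall4, a zinc finger factor of ESCs, stood at 182 and 152 against 3.90 and 3.44 (5.48 ± 0.30). Esrrb, an orphan nuclear receptor, stood at 153 and 122 against 0.780 and 0.687, a ratio of 187 (counting interval 50.4 to 1564) because the remaining cells held so few UMIs.

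Among genes known as late markers of reprogramming, Utf1 stood at 204 and 139 CPM in members against 0.780 and 2.06 (log2 fold change 6.79 ± 0.40). Dppa5a, an RNA-binding protein gene of pluripotent cells, stood at 88.0 and 119 against 3.12 and 2.06 (5.31 ± 0.39). Zfp42, also called Rex1, was lower in level, at 19.9 and 52.2 against 0 and 1.37 (ratio 50.8, interval 12.8 to 440). Both replicates of members were above both of the remaining cells for each of these genes. Otx2, Prdm14 and Lin28a had 0 UMIs in the remaining cells and were at least 44.7-fold, 29.0-fold and 25.4-fold higher in members, against a floor of 3 UMIs over the class.

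Tdh, the remaining marker named for these cells, was not confined to them. It stood at 511 and 602 CPM in members and at 70.2 and 136 in the remaining cells, a log2 difference of 2.42 ± 0.21 (edgeR adjusted p = 4.6e-08). Without scaling, members with 1 gate UMI were at 106 and 133, within the range of the cells with 0 UMIs (64.8 and 128) or just above it, while members with both genes were at 899 and 1278. Trh, which encodes thyrotropin-releasing hormone and is on the pluripotency list, had the same split: 17.7 and 106 with 1 UMI, 955 and 1594 with both genes, and 90.8 and 115 with 0. Members with both genes held a Tdh UMI in 13 of 14 and 9 of 10 cells, and a Trh UMI in 11 of 14 and 6 of 10. Of their Trh UMIs, 1 cell held 75 of 154 in replicate A and 1 cell held 81 of 187 in replicate B.

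Of the reprogramming factors, Klf4 was at 82.4 and 119 CPM in members and 73.3 and 54.99 in the remaining cells (log2 fold change 0.67 ± 0.24; edgeR adjusted p = 0.043). This call was lost without replicate B (0.16) and with DESeq2 (adjusted p = 0.066). Myc was not called, at 133 and 189 against 158 and 166. Pou5f1, which encodes Oct4, was low even in members, at 17.0 and 12.4 against 0.780 and 0.687 (ratio 20.0, interval 4.36 to 185). Whether these UMIs include RNA of a transgene is not given in the sources used here.

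**Figure D3:**
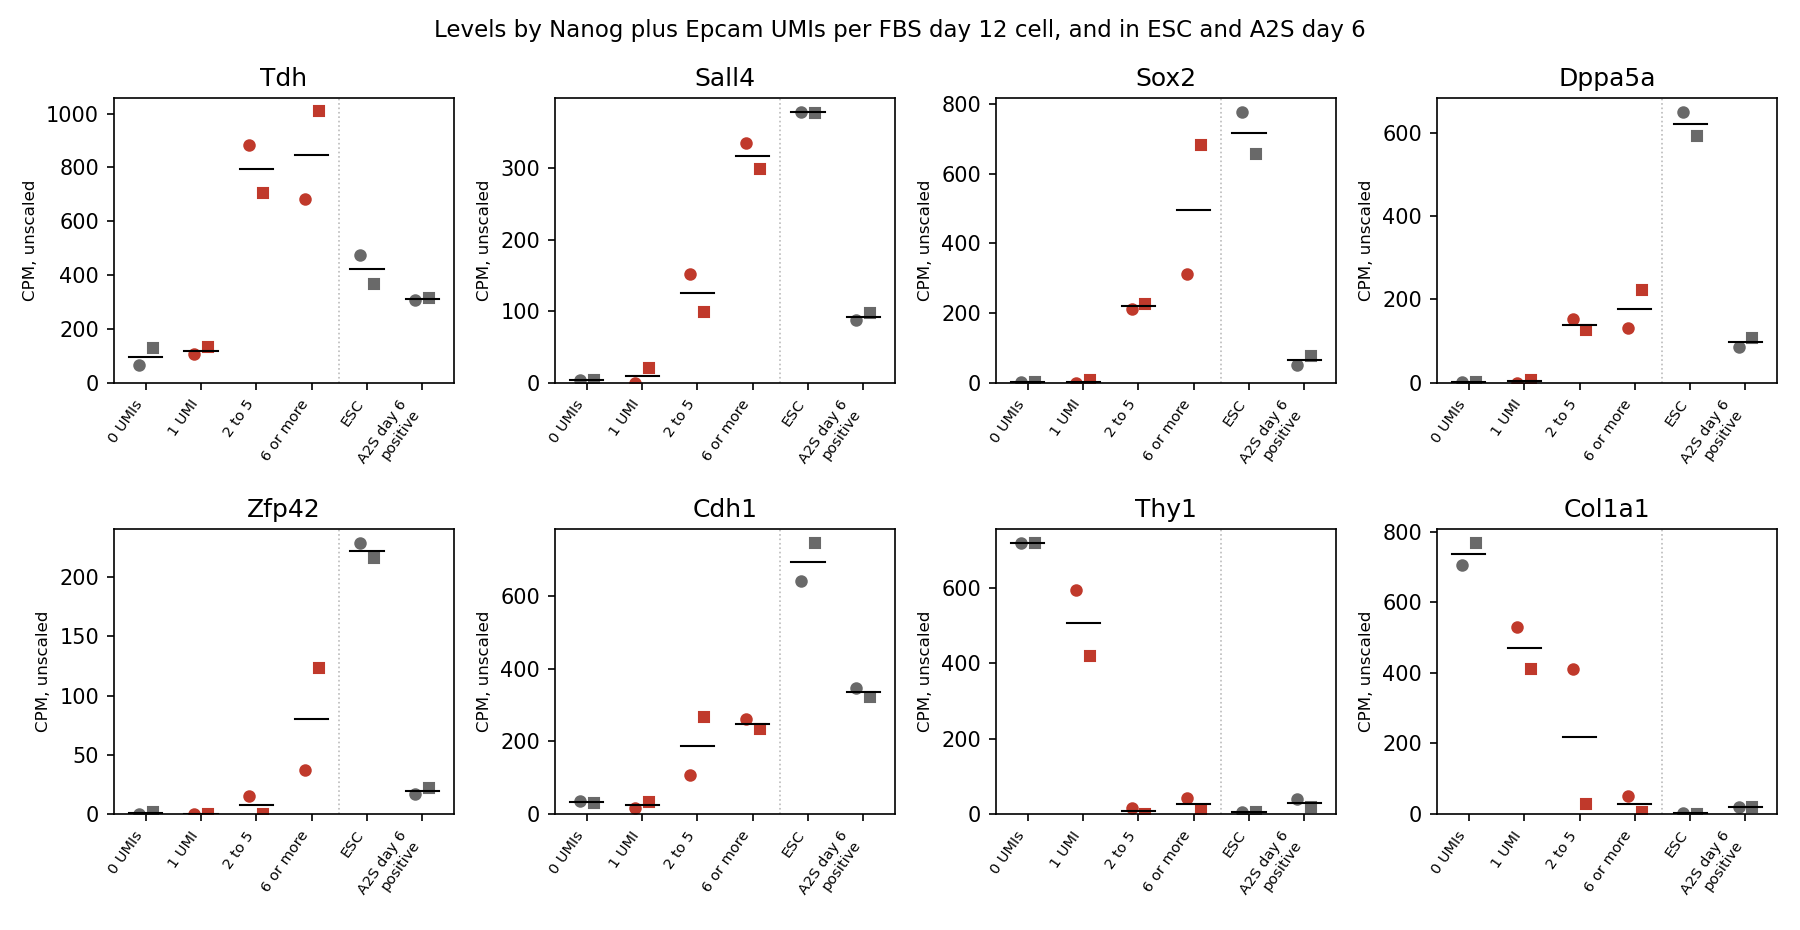
Unscaled CPM of 8 genes (y axis, one panel per gene) in serum day 12 cells by their UMIs of Nanog plus Epcam (0, 1, 2 to 5, 6 or more), in ESCs and in positive A2S day 6 cells (x axis), with members in red, the other cells in grey, circles for replicate A, squares for replicate B and a line at their mean. Sall4 goes from 0 and 19.9 with 1 UMI to 152 and 98.6 with 2 to 5 and 336 and 299.7 with 6 or more, while Thy1 goes from 594 and 419 with 1 UMI to 43.5 and 11.8 with 6 or more.

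Epithelial genes were higher in members for 19 of the 25 tested of 27 listed, and lower for none. Cdh1, which encodes E-cadherin, stood at 145 and 159 CPM against 37.4 and 30.9 (log2 fold change 2.16 ± 0.21). Cldn4, a tight-junction claudin, had 0 UMIs in the remaining cells and was at least 21.8-fold higher in members. Unscaled Cdh1 in members with 1 gate UMI was at 17.7 in replicate A, below the 34.6 of the cells with 0 UMIs. In replicate B it was at 33.2, above their 29.2.

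Matrix genes of fibroblasts were lower in members for 29 of 30, with a median log2 fold change of −1.87, and the exception was Lum (31.2 and 2.49 against 41.3 and 13.7 CPM). Col1a1, a chain of type I collagen, stood at 270 and 162 in members against 765 and 815 (−1.89 ± 0.17). Thbs1, which encodes thrombospondin-1, stood at 338 and 646 against 4674 and 3760 (−3.09 ± 0.20). Among mesenchymal regulators 13 of 22 were lower and none was higher. Thy1, the surface marker used to follow fibroblast loss, stood at 213 and 162 against 778 and 762 (−2.05 ± 0.19).

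Those intermediate levels were sums over unlike members. Thy1 without scaling was at 594 and 419 CPM in members with 1 gate UMI and at 43.4 and 17.0 in members with both genes, against 719 and 718 in the cells with 0. Col1a1 was at 532 and 412 with 1 UMI, 55.8 and 17.0 with both, and 707 and 769 with 0. Twist1, a mesenchymal transcription factor, was at 283 and 153 with 1 UMI, 0 and 8.52 with both, and 205 and 178 with 0.

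Cell cycle genes were higher in members. Of 40 S phase genes, 31 were higher and none was lower (median log2 fold change 1.53), and of 42 G2 and mitosis genes 29 were higher and none was lower (1.13). Mcm3, a subunit of the replicative helicase, stood at 273 and 249 CPM against 50.7 and 37.1 (2.57 ± 0.18). Ccnb1, which encodes the mitotic cyclin B1, stood at 400 and 259 against 56.9 and 77.7 (2.27 ± 0.20). Mki67 was not called, at 111 and 69.6 against 48.3 and 79.0, with overlapping libraries, but was higher without replicate B (1.19; edgeR adjusted p = 0.0090). Cdkn1a, which encodes the p53-induced cell cycle inhibitor p21, was slightly lower, at 443 and 346 against 536 and 555 (−0.48 ± 0.13; edgeR adjusted p = 0.010), a call lost without replicate B (−0.28).

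Metabolic and chromatin genes also differed. Genes of threonine, glycine and one-carbon metabolism were higher for 12 of 15 and lower for none. Gcat, the enzyme that follows Tdh in threonine breakdown, stood at 111 and 109 CPM against 17.9 and 20.6 (2.50 ± 0.25), and Gldc, of the glycine cleavage system, at 76.7 and 44.7 against 0 and 2.75 (5.28 ± 0.56). Of 17 glycolysis genes 9 were higher and none was lower, led by the glucose transporter gene Slc2a3 at 548 and 728 against 111 and 102 (2.59 ± 0.19). Of 8 DNA methylation genes 6 were higher, among them the dioxygenase gene Tet1 at 142 and 144 against 4.68 and 6.19 (4.69 ± 0.31) and the cofactor gene Dnmt3l at 54.0 and 27.3 against 0.780 and 0.687 (ratio 54.4, interval 13.8 to 470).

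The genes most raised and most lowered by the naming rule included genes of no list described above. Besides Esrrb, Sox2, Utf1 and Nr0b1, the highest ratios were those of Tex19.1, a germ cell and placental gene (185, interval 31.8 to 7450), Tcl1, a coactivator gene of ESCs (156, 26.5 to 6304), Lefty2, a Nodal inhibitor (112, 29.9 to 949), and the fatty acid binding protein gene Fabp3 (71.4, 23.3 to 356). Mmp13, a collagenase gene, had 0 UMIs in members against 99.0 and 188 CPM and was at least 36.7-fold lower, a call that DESeq2 did not make (adjusted p = 0.226). Upk1b, Igf1, Col10a1, Egfl6, Lpl, Msln and Mgll followed it among the lowered genes, and Upk1b and Msln were not called without replicate A (edgeR adjusted p = 0.089 and 0.14).

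Markers of other cell types were checked beside these groups. Macrophage markers summed to 177 and 169 CPM in members and 114 and 429 in the cells with 0 UMIs, with none of 4 tested called. Lyz2, a macrophage lysozyme gene, was at 0.780 and 146 in the 2 libraries of the remaining cells and at 11.4 and 0 in members. Of smooth muscle markers 3 of 6 were lower in members, whose sums were 731 and 485 against 2170 and 1825. Of 10 endothelial markers 7 were at 0 in members, and 1 of 3 tested, Tek, was lower. Of the tested keratinocyte markers Sfn and Krtdap were higher, of trophoblast markers Tfap2c was, and of neural markers Nefl and Tubb3 were higher and Map2 was lower. Tek, Nefl, Tubb3 and Map2 were not called without replicate A. Krtdap turned direction without replicate B (−0.45), and with the library as a block neither it (edgeR adjusted p = 0.054) nor Map2 (0.051) was called. The part of such cells in the results was not tested.

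Against ESCs, members carried most pluripotency genes at lower levels, held fibroblast RNA that ESCs nearly lacked, and had a few network genes at or above the ESC level. Of all genes tested, 37.4% were called (2275 higher in members, 19.5%, and 2081 lower, 17.9%). Of 39 pluripotency genes 23 were lower, 4 were higher and 12 were not called (median log2 fold change −1.17). Requiring both Nanog and Epcam in the day 12 members left 14 lower and 11 higher, and 10.98% of 11240 genes called.

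Dppa5a was at 641 and 589 CPM in ESCs, against 88.0 and 119 in members (log2 fold change −2.56 ± 0.17; edgeR adjusted p = 3.6e-10). Tdgf1, a Nodal co-receptor gene, was at 1352 and 1595 in ESCs against 355 and 268 (−2.25 ± 0.15). Zfp42 was at 226 and 215 against 19.9 and 52.2 (−2.57 ± 0.28). These 3 genes and Pou5f1 stayed lower than in ESCs in the members with both genes, at log2 fold changes of −1.36 ± 0.20 for Dppa5a, −0.99 ± 0.14 for Tdgf1, −1.18 ± 0.32 for Zfp42 and −1.95 ± 0.48 for Pou5f1 (edgeR adjusted p up to 0.014).

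Other core factors were lower over all members and not called with both genes. Sall4 was at 374 and 375 CPM in ESCs against 182 and 152 in members (−1.17 ± 0.15). In members with both genes the difference was −0.02 ± 0.17. For Sox2 the difference was −1.45 ± 0.19 over all members and −0.30 ± 0.21 with both genes (edgeR adjusted p = 0.39). Esrrb changed sign, from −0.67 ± 0.19 to 0.53 ± 0.20, and the latter was not called (edgeR adjusted p = 0.092). The call over all members was also lost without FBS day 12 replicate B (−0.51, adjusted p = 0.093) and without ESC replicate A (−0.49, 0.088). A difference that is not called does not show that the levels were alike.

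Tdh, Trh and Prdm14 went the other way. Tdh over all members was not called against ESCs, at 511 and 602 against 467 and 366 CPM (0.42 ± 0.18; edgeR adjusted p = 0.073). In members with both genes it was higher than in ESCs, by 1.30 ± 0.19 (edgeR adjusted p = 2.2e-05), and leaving out FBS day 12 replicate A (0.54, adjusted p = 0.0043) or ESC replicate A (0.60, 0.037) also gave a call over all members. Trh was at 497 and 736 in members and 302 and 294 in ESCs (1.06 ± 0.15), and the difference was 2.00 ± 0.16 with both genes. Prdm14, a factor that represses primed-state genes, was higher by 1.80 ± 0.44 over all members and by 3.12 with both genes, although its level was only 31.2 and 32.3. Nr0b1, a nuclear receptor gene of the network, was not called over all members and was higher by 1.18 ± 0.21 with both genes.

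Epithelial genes were lower than in ESCs for 12 of 25 and higher for 6. With both Nanog and Epcam required, 2 of 25 were called lower and 4 higher (24%, against 10.98% over all genes). Most of the list was then not called, and its median log2 fold change was still below 0, at −0.53. Cdh1 was at 633 and 743 CPM in ESCs, against 145 and 159 in members (−2.18 ± 0.15), and it stayed lower with both genes (−1.49 ± 0.19). Cldn3 was higher in members, at 45.4 and 44.7 against 11.1 and 19.4 (1.54 ± 0.35). Krt19, a keratin gene, was at 11.4 and 57.2 against 9.29 and 16.7 (1.43 ± 0.47), and its direction turned without FBS day 12 replicate B (−0.22).

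Matrix genes were higher than in ESCs for 27 of 30 and lower for none (median log2 fold change 6.72), and mesenchymal regulators for 20 of 22. The proteoglycan genes Prelp and Fmod and the interleukin-1 receptor antagonist gene Il1rn had 0 UMIs in ESCs and were at least 472-fold, 357-fold and 466-fold higher in members. With both genes required, 12 of 30 matrix genes and 5 of 20 mesenchymal regulators were higher and none was lower. Il1rn was at 744 and 877 unscaled CPM in members with 1 gate UMI and at 0 and 8.52 in members with both genes.

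The p53 target Cdkn1a differed in another way. It was at 443 and 346 CPM in members and 51.3 and 45.4 in ESCs (3.02 ± 0.16; edgeR adjusted p = 4.0e-12). In members with both genes the difference was still 2.64 ± 0.24, and unscaled levels were 378 and 230 against 496 and 524 in the cells with 0 UMIs. Both replicates of these members were above both ESC libraries. Thy1 (2.88 ± 0.66) and Col1a1 (4.62 ± 0.99) were also higher than in ESCs with both genes, from the low unscaled levels given above. Of these 24 members, 11 held no UMI of the 10 fibroblast markers. Their upper quartile was 1.38 marker UMIs per 10000, and the highest cell, of replicate A, held 31.0. How much single cells or free RNA add to these sums was not tested. Myc was higher than in ESCs, at 133 and 189 against 52.6 and 58.2 (1.55 ± 0.19).

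Several groups were below ESCs. Of 40 S phase genes 25 were lower and none higher, and of 42 G2 and mitosis genes 29 were lower and none higher. With both Nanog and Epcam these counts were 7 lower and 2 higher, and 6 lower and 2 higher. The shares called were then 22.5% of S phase genes and 19.05% of G2 and mitosis genes, against 10.98% over all genes. Calls over all genes had also dropped, from 37.4%, so the smaller counts alone do not show that the cell cycle difference was lost. Dnmt3b, a de novo DNA methyltransferase gene, was at 119 and 52.2 CPM against 702 and 683 in ESCs (−3.04 ± 0.21), and at −1.80 with both genes. Mthfd2, of mitochondrial one-carbon metabolism, was at 34.1 and 59.7 against 310 and 339 (−2.77 ± 0.22), and at −2.38 with both genes. Psat1, of serine synthesis, was at 168 and 231 against 724 and 718 (−1.84 ± 0.14), and at −1.88 with both genes. Phlda2, an imprinted gene, was nearly absent from members, at 5.68 and 4.97 against 211 and 227 (−5.35 ± 0.35). The immediate-early gene Fosb had 0 UMIs in members, at least 30.8-fold lower than in ESCs (118 and 127), a call that DESeq2 did not make (adjusted p = 0.057).

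**Figure D4:**
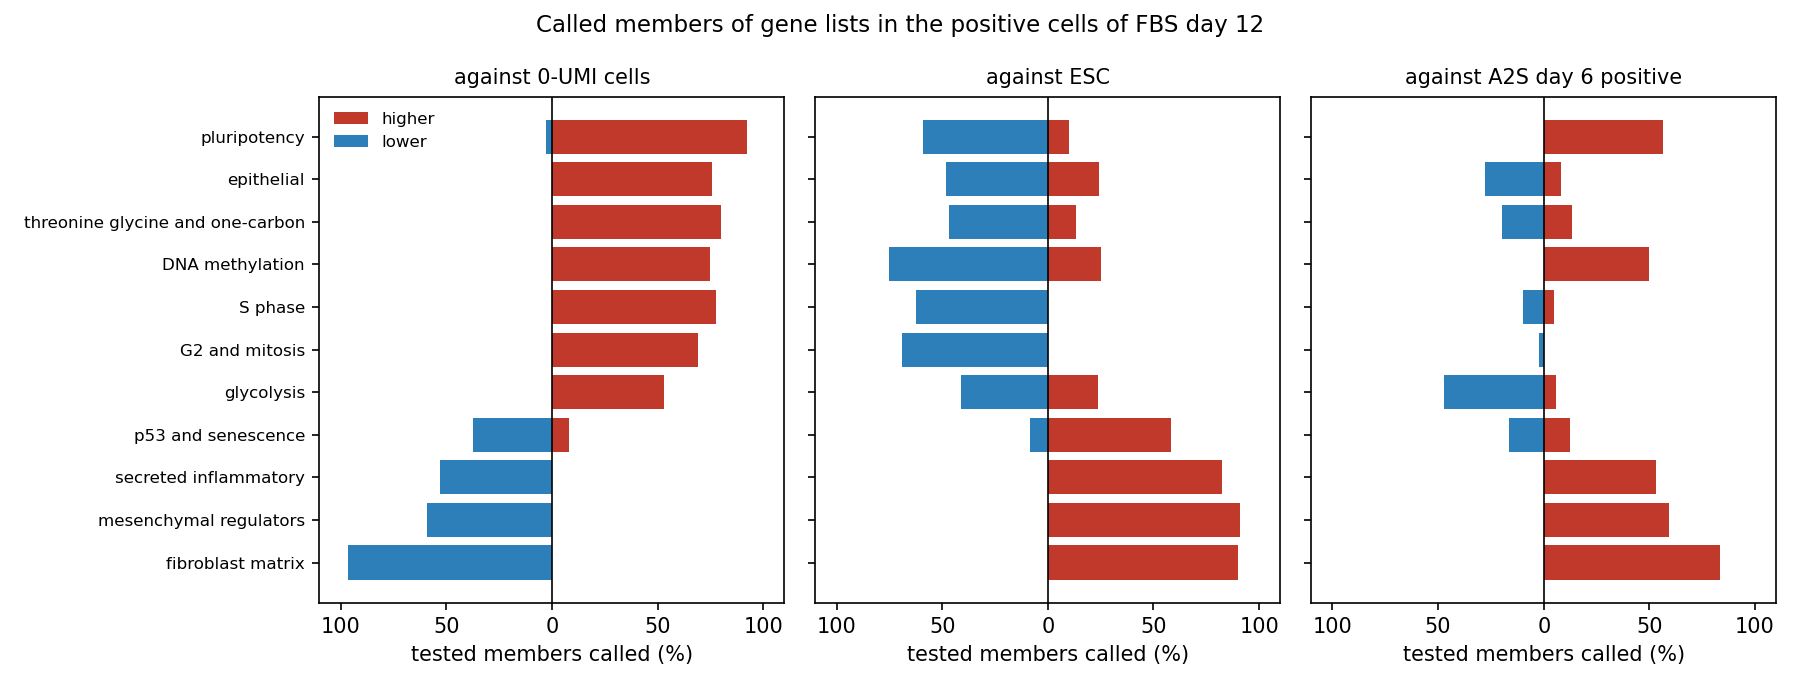
Percent of the tested genes of each list (x axis; lists on the y axis) called higher (bars to the right) or lower (to the left) in day 12 members, in one panel each against the cells with 0 UMIs, ESCs and positive A2S day 6 cells. Matrix genes go from 29 of 30 lower to 27 of 30 and 25 of 30 higher, and pluripotency genes from 36 of 39 higher to 23 of 39 lower and 22 of 39 higher.

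Cells taken by the same rule from A2S day 6, 373 in number, held Nanog at 290 and 387 CPM and Epcam at 441 and 399. Against them, day 12 members had higher levels of many pluripotency genes and of fibroblast matrix genes. Of all genes tested, 13.9% were called (995 higher in day 12 members, 8.54%, and 628 lower, 5.39%). The treatment, the day and the share of positive cells all differ between these groups and cannot be told apart. DESeq2 called 910 higher and 301 lower, which moved the share of higher calls from 61.3% to 75.1%. Without A2S day 6 replicate B 1017 genes were called.

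Of 39 pluripotency genes 22 were higher in day 12 members and none was lower, and 27 were higher with both genes required in each group. Sox2 was at 50.8 and 77.3 CPM in A2S cells, against 182 and 331 (2.02 ± 0.23; edgeR adjusted p = 2.2e-06). Utf1 was at 15.8 and 20.0 against 204 and 139 (3.25 ± 0.24). Tdh was at 301 and 313 against 511 and 602 (0.86 ± 0.18). Trh was at 18.9 and 18.7 against 497 and 736 (5.04 ± 0.19), and at 30.6 and 26.8 against 955 and 1594, unscaled, with both genes. Dppa5a (0.12 ± 0.20), Zfp42 (0.94 ± 0.39), Tdgf1 (0.37 ± 0.16) and Pou5f1 (−1.12 ± 0.44) were not called. With both genes required, Tdgf1 (1.04 ± 0.15) and Zfp42 (1.75) were called. So were Tdgf1 without FBS day 12 replicate B (0.56, edgeR adjusted p = 0.029) and Zfp42 without replicate A (1.44, 0.011).

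Genes of the formative and primed states were higher for 6 of 14 and lower for 1, and for 5 and 1 of 12 with both genes required. Pou3f1, which encodes the POU factor Oct6, was at 76.7 and 74.6 CPM against 2.31 and 3.48 (4.69 ± 0.44). Otx2, a homeobox gene of the epiblast, was at 62.5 and 37.3 against 0.385 and 0 (ratio 240, interval 40.5 to 9746). Dnmt3l was at 54.0 and 27.3 against 3.08 and 2.17 (3.87 ± 0.46). Cd24a was the gene of this list at a lower level, at 139 and 122 against 389 and 310 (−1.43 ± 0.18).

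Of 25 epithelial genes 7 were lower in day 12 members and 2 higher, and with both genes required 3 were lower and 2 higher. Cdh1 was at 342 and 322 CPM in A2S cells, against 145 and 159 (−1.12 ± 0.16), and was not called with both genes required (−0.57; edgeR adjusted p = 0.11). Elf3, an epithelial transcription factor gene, was at 63.9 and 112 against 8.52 and 12.4 (−3.03 ± 0.49). The imprinted gene Peg10 was at 288 and 250 against 25.6 and 7.46 (−4.07 ± 0.35).

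Matrix genes were higher in day 12 members for 25 of 30 and lower for none, and for 4 of 30 with both genes required. Mgp, which encodes matrix Gla protein, was at 2843 and 3435 CPM against 1.92 and 6.52 (9.56 ± 0.39). It remained higher with both genes required (8.37), although its unscaled levels there were 676 and 25.6. Egr1, an immediate-early transcription factor gene, was at 162 and 144 against 0.770 and 0.434 (ratio 249, interval 83.1 to 1225), and was still higher with both genes (6.87). Among the other genes raised most, Mmp3 rested on 2 cells of replicate B, and without that library it was not called (edgeR adjusted p = 0.15). Col1a1 (3.42 ± 0.23) and Thy1 (2.67 ± 0.25) were higher over all members and not called with both genes required.

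Of 40 S phase genes 2 were higher in day 12 members and 4 lower, and of 42 G2 and mitosis genes none was higher and 1 was lower. With both genes required, 6 genes of each list were higher and none was lower (15% and 14.3%, against 4.80% over all genes). Cdkn1a was at 538 and 506 CPM in A2S cells, against 443 and 346 (−0.41 ± 0.13; edgeR adjusted p = 0.040), a call lost without FBS day 12 replicate B (−0.24) and without A2S day 6 replicate A (−0.36) or B (−0.46). The 2 A2S libraries stood apart in Eif4a1, a translation initiation factor gene, at 23.9 in each against 429 and 527 in day 12 members, 1015 in ESCs and 288 and 327 in the cells with 0 UMIs. What sets that gene apart in them was not tested.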

How the data were processed

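Droplet single-cell RNA libraries (SureCell WTA 3′ kit on a ddSEQ isolator, per the labels' protocols) were deposited as tables of raw UMI counts per gene and barcode for 24421 genes. The submitters' processing notes list bcl2fastq 2.19, STAR and mm10 for these deposited counts; the sources used here give no counting program or annotation. Kept libraries held 134 to 431 cells and 1727490 to 8848775 UMIs. Droplet libraries can carry free RNA. MEF libraries cannot measure that of Nanog and Epcam at day 12, and the feeder barcodes there were too few to bound it.

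Barcodes with 1000 or more UMIs and not on that list were kept (Python 3.11.15, pandas 2.3.3). Counts were summed per class and library and fitted in edgeR 4.0.16 (R 4.3.3; TMM, filterByExpr by class, quasi-likelihood test) over 8 sums: day 12 members, day 12 cells with 0 UMIs, ESCs and positive A2S day 6 cells. The 4 classes share 1 estimate of the spread. Nanog and Epcam were left out of all counts of calls. SE is the absolute log2 fold change over the root of F. A class with 0 UMIs was set at a floor of 3 UMIs over the class, and 1 to 3 UMIs gave a ratio with an exact counting interval. On simulated counts for members against cells with 0 UMIs (11135 genes), the fit called 7.58% of genes changed 1.5-fold, 34.9% of those changed 2-fold and 77.8% of those changed 4-fold, with 3 false among 79 calls. The simulated classes had a common mean profile, with a small set of genes changed in members only. The classes of the data differed in many more genes, so these values do not give the rate of false calls in the data.

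Members and the cells with 0 UMIs of 1 letter share a library, which is the pairing used for the block. Over genes, the A minus B differences of these 2 classes had a correlation of −0.01745. Pairs of classes from different libraries gave −0.0396 to 0.0102. Counting error brings such values towards 0, so they do not show that a shared library had no effect. Named genes were the 8 called genes with the largest fold each way at 50 or more CPM with libraries that did not overlap (without mitochondrial, ribosomal-protein, Gm and Rik genes), a panel of 18 genes, and up to 3 called genes each way from every list, or the 2 of smallest p. Genes outside that rule, such as Nr0b1, Trh against the cells with 0 UMIs, Klf5, Fmod and Eif4a1, were chosen after their values were seen. The members and lists were chosen with earlier results of these data known. Alternatives covered scaling, filters, DESeq2 1.42.0, depth, doublets (Scrublet in scanpy 1.11.5), the rule, the block and each library left out. Promoters are from RefSeq (GRCm38.p6).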

Additional observations from a re-analysis of the deposited data

How the results depend on the processing

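Of 4442 recomputed values over 277 gene results, 3965 kept direction and side of the threshold, 421 lost a call, 36 gained one and 20 turned direction. The replicate block gave 1494 higher and 1648 lower against the cells with 0 UMIs, 2229 and 1998 against ESCs, and 978 and 614 against A2S day 6. The block changed 6 of 276 gene calls, of which Krtdap and Map2 are given in the report.

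With every cell thinned to 1000 UMIs after the cells were chosen, 519 genes were called against the cells with 0 UMIs, 652 against ESCs and 193 against A2S day 6. With the rule applied after thinning, 1463 were called against ESCs and 526 against A2S day 6. Against the cells with 0 UMIs, narrower rules gave more calls than the 3233 reported: 4352 with 2 or more UMIs, 4143 with both genes, 3776 with a Nanog UMI and 3595 with the rule after thinning. Against ESCs and A2S day 6, requiring 2 or more UMIs gave 2256 and 725, a Nanog UMI 2657 against ESCs, and both genes (chosen after seeing the data) 1234 and 540. Leaving out 1 library gave 2037 to 2472 calls against the cells with 0 UMIs, 3374 to 3553 against ESCs and 1017 to 1258 against A2S day 6. The mean share of 18.1% became 7.72% thinned, 17.1% with listed barcodes and 11.7% at 2 or more UMIs.

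Against the cells with 0 UMIs, log2 fold changes turned for Runx1 when thinned (0.076), Gdf15 with the rule after thinning (−0.37) and Krtdap without replicate B (−0.45; without replicate A, 3.83). Against ESCs, Esrrb turned with a Nanog UMI (0.021), both genes (0.53) and the rule after thinning (0.31). Krt19 turned with a Nanog UMI (−1.54), 2 or more UMIs (−7.37), both genes (−7.15), the rule after thinning (−7.10) and without replicate B (−0.22; without replicate A, 2.11). Twist1 (−1.13) and Sparc (−0.051) turned with both genes. Against A2S day 6, Sparc turned with 2 or more UMIs (−0.43), both genes (−0.35) and the rule after thinning (−0.20). Dab2 turned with both genes (−0.17) and the rule after thinning (−0.25), Thy1 with 2 or more UMIs (−0.29) and Hk2 when thinned (−0.23). The causes were not tested. A further 121 values, of 48 genes, were left out because both classes held 3 UMIs or fewer. The 68 members and 2 libraries limit every value.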

Other observations

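Secreted inflammatory genes were lower in day 12 members than in the cells with 0 UMIs for 9 of 17 tested and higher for none, and higher than in ESCs for 14 of 17 and than in positive A2S day 6 cells for 9 of 17. With both Nanog and Epcam required these counts were 12 lower and 1 higher, 7 higher and 2 higher. The shares called were then 76.5%, 41.2% and 11.8%, against 36.9%, 10.98% and 4.80% over all genes. Tac2, a tachykinin gene, stood at 119 and 191 CPM in members and 107 and 131 in the cells with 0 UMIs. Its level was 0 in ESCs, and 1.15 and 2.17 in positive A2S day 6 cells. Tac2 was not called against the cells with 0 UMIs (log2 fold change 0.39 ± 0.22, edgeR adjusted p = 0.20). With both genes required it was not called either (−0.77 ± 0.41, edgeR adjusted p = 0.15).

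Imprinted genes were called in both directions. Against the cells with 0 UMIs, Peg3, a zinc finger gene, was higher at 71.0 and 57.2 CPM against 5.46 and 7.56 (3.26 ± 0.39). Mest was lower at 22.7 and 29.8 against 105 and 140 (−2.21 ± 0.29). Of 14 tested, 2 were higher, near the 13.2% over all genes, and 6 were lower, against 14.6% over all genes. H19, a noncoding RNA gene, differed between replicates within members with both Nanog and Epcam, at 986 and 8.52 unscaled CPM (127 of the 159 UMIs of replicate A were in 1 cell), against 1993 and 1349 in members with 1 gate UMI. Of 15 germline genes, 5 were higher than in the cells with 0 UMIs, and 8 were lower and 1 higher than in ESCs. With both genes required, 8 of 13 were higher than in the cells with 0 UMIs (61.5% called, against 36.9% over all genes). Against ESCs, 2 of 13 were then lower and 1 higher (23.1% called, against 10.98%). Of 24 p53 and senescence genes, 9 were lower and 2 higher than in the cells with 0 UMIs (14.6% and 13.2% over all genes). Against ESCs, 14 were higher and 2 lower (19.5% and 17.9% over all genes). With both genes required, 6 were higher and 2 lower than in ESCs (33.3% called, against 10.98% over all genes). Igfbp3, which encodes an insulin-like growth factor binding protein, was at 1391 and 1611 in members against 75.6 and 97.4 in ESCs (4.11 ± 0.13), and was not called with both Nanog and Epcam required (0.00). Of 4 primitive endoderm markers tested, Sparc and Dab2 were lower in members than in the cells with 0 UMIs.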
